A study of Homo sapiens with 24 samples.

Results

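Cholesterol synthesis and its control by the sterol regulatory element-binding proteins (SREBPs) were followed through 29 genes, out of 60675 with deposited counts, in 2 prostate cancer cell lines. The 29 were taken by their place in the pathway. They comprise 7 genes of the mevalonate pathway (ACAT2, HMGCS1, MVK, PMVK, MVD, IDI1 and FDPS), 11 genes of the steps from squalene to cholesterol (FDFT1, SQLE, LSS, CYP51A1, TM7SF2, MSMO1, NSDHL, HSD17B7, EBP, SC5D and DHCR7), 5 genes of the SREBPs and their regulators (SREBF1, SREBF2, SCAP, INSIG1 and INSIG2), and 6 genes of sterol transport and storage (STARD4, NPC1, NPC2, ABCA1, ABCG1 and SOAT1). All 29 passed the filter on low counts in both lines.

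The study depleted METTL3, the catalytic subunit of the writer of N6-methyladenosine on RNA, with and without androgen. There were 24 RNA-seq libraries in 8 groups of 3: LNCaP:C4-2 (LNCaP:C42 in the labels), a castrate-resistant line that still responds to enzalutamide, or 22Rv1, an enzalutamide-resistant line that also makes androgen receptor variants, each with a non-targeting siRNA pool (siSCR) or a pool against METTL3 (siMETTL3), and each with the synthetic androgen R1881 at 1 nM or its ethanol vehicle. Every group was grown in phenol red-free medium with charcoal-stripped serum, which is poor in steroids and lipids. Cells were transfected, transfected again after 48 h and then held with R1881 or vehicle for 72 h. Each target had 1 siRNA pool, and the labels do not say whether the 3 libraries of a group came from separate cultures, so the p-values measure only the spread between these libraries.

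Cholesterol is built from acetyl-CoA through mevalonate, isoprenoid pyrophosphates and squalene, and lanosterol is then trimmed to cholesterol. SREBP-2, the product of SREBF2, drives most of these genes, while SREBP-1, the product of SREBF1, is better known for fatty acid synthesis. The precursors are held in the endoplasmic reticulum by INSIG proteins when sterols are plentiful, and are escorted by SCAP to the Golgi for cleavage when sterols are scarce. INSIG1 is itself an SREBP target and so closes a feedback loop. When sterols are in excess, liver X receptors (LXRs) raise the exporters ABCA1 and ABCG1 and also SREBF1. Androgens are known to raise lipid-synthesis genes in androgen-sensitive prostate cancer cells.

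Promoter sequence was looked at because SREBPs bind sterol regulatory elements and act together with NF-Y, which binds CCAAT boxes. RefSeq promoters (GRCh38.p14, the 250 bases before each start) were at hand for 25 of the 29 genes. The element TCACNCCAC, searched on both strands, was in 239 of 27305 promoters (0.875%) and in 1 of the 25, SREBF2, where it starts 133 bases before the gene start. The box CCAAT, searched on both strands, was in 9021 promoters (33.04%) and in 17 of the 25. It was in 7 of the 12 genes with a promoter that rose with R1881 in LNCaP:C4-2 siSCR below (IDI1, SREBF1, SCAP, INSIG2 and NPC1 had none) and in 10 of the 13 other members. Only 1 start per gene was searched. For IDI1 that window (chr10:1056705-1056954) lies apart from the counted gene (chr10:1039908-1049170). The window lies wholly inside the counted gene for MVK, PMVK, CYP51A1, EBP, SC5D, DHCR7, SCAP, NPC1 and NPC2. Other starts of these genes, IDI1 included, were not covered. A match describes these letters only, and a promoter without one may be bound through other letters or elsewhere.

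The SREBF2 stretch (chr22:41832917-41833035, plus strand) is shown because it holds the only match to the sterol element, in capitals. The other 4 belong to genes whose levels changed in LNCaP:C4-2 below, were chosen after those values were seen, and carry CCAAT or its reverse complement ATTGG in capitals. They are INSIG1 (chr7:155297696-155297724, plus strand), MSMO1 (chr4:165327472-165327651, plus strand), STARD4 (chr5:111512649-111512708, minus strand) and HMGCS1 (chr5:43313496-43313579, minus strand). MSMO1 has 4 such boxes, and the INSIG1 box lies 170 bases before the start.
SREBF2: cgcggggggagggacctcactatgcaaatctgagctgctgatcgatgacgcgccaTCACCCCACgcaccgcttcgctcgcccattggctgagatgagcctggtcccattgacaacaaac
INSIG1: cgccggcctcccATTGGttgcggccgcct
MSMO1: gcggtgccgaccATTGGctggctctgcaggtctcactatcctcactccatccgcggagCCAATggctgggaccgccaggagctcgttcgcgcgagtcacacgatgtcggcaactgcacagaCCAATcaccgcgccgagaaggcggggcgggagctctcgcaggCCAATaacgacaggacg
STARD4: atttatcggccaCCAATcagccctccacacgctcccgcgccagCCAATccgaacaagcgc
HMGCS1: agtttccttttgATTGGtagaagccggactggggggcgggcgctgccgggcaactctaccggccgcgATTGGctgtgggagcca

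Each library held 15716224 to 21306019 counted fragments, and levels are given as normalised CPM (a gene's fragments per 1e6 counted fragments, after TMM scaling of the 24 libraries). METTL3 itself was 26.5 to 35.9 CPM in the 6 siSCR and 17.5 to 22.7 in the 6 siMETTL3 libraries of LNCaP:C4-2, and 45.4 to 51.6 against 21.2 to 25.4 in 22Rv1, with no overlap in either line. Its log2 change in LNCaP:C4-2 was −0.61 with vehicle and −0.57 with R1881 (adjusted p = 0.0127 and 0.0256 by the Benjamini-Hochberg method in edgeR's quasi-likelihood fit). The vehicle call was lost in 4 of 6 fits with 1 library left out. With R1881 the fall was 1.48-fold, short of the 1.5-fold that a call needed. With an offset for GC content the 2 values were −0.56 and −0.40. In 22Rv1 the log2 change was −0.89 and −1.18. A large part of the METTL3 mRNA thus remained. The androgen target FKBP5 rose with R1881 in both lines (log2 3.49 and 3.33, siSCR), whereas KLK3, which encodes PSA, rose in LNCaP:C4-2 (19.7 to 335 CPM) and was 6.604 and 6.563 CPM in 22Rv1. Luminal prostate markers summed to 1201 to 2444 CPM, fibroblast markers to 15.1 to 74.2, endothelial markers to 0 to 12.5 and leukocyte markers to 0 to 1.68. Of the 24 libraries, 5 stood apart from both group mates across all genes: LNCaP:C4-2 siSCR vehicle replicate 3, siSCR R1881 replicate 1 and siMETTL3 vehicle replicate 1, and 22Rv1 siSCR vehicle replicate 3 and siMETTL3 vehicle replicate 1. The deviation of GC-rich against GC-poor genes from the group mean was −0.46 to −0.23 (log2) in 4 of them and 0.34 in LNCaP:C4-2 siSCR R1881 replicate 1, and −0.18 to 0.24 in the rest. Standing apart marks the 1 library unlike its 2 mates and does not show which of the 3 is typical. Replicates 2 and 3 of LNCaP:C4-2 siSCR R1881, which did not stand apart, had the highest mitochondrial shares of the 24 (9.73% and 9.69%). Replicate 1 had 7.08%. Leaving the 5 out can therefore line library make-up up with condition, which was not tested. Counts of members are given with and without these libraries, and values with an offset for GC content where a call was lost. Counts from a whole culture do not separate fewer expressing cells from less RNA per cell.

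At rest, in siSCR with vehicle, the pathway was weighted differently in the 2 lines. On the scale corrected for gene length (RPKM), INSIG1 was the highest of the 29 in LNCaP:C4-2 at 251, followed by SREBF1 at 112. In 22Rv1 the highest was FDFT1 at 116, which encodes squalene synthase, followed by HMGCS1 at 82.2 and INSIG1 at 79.4. ABCA1 was the lowest in both lines, at 0.323 and 0.144.

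A gene was called when its adjusted p was under 0.05 and it changed at least 1.5-fold. By this rule 6 of the 29 were higher in 22Rv1 than in LNCaP:C4-2 (31.2% of all 19437 genes tested) and 6 were lower (27.9%), so the share that differed was below the background. The 6 higher were SOAT1, which esterifies cholesterol for storage (log2 difference 2.04, standard error 0.11, adjusted p = 1.59e-15), HMGCS1, the HMG-CoA synthase (1.58), FDFT1 (0.95), the sterol-C4 demethylase MSMO1 (0.90), the cholesterol carrier STARD4 (0.63) and SREBF2 (0.62). The 6 lower were ABCG1 (−2.57), SREBF1 (−2.35, 5.10-fold, adjusted p = 8.83e-16), INSIG2 (−1.99), INSIG1 (−1.66), ABCA1 (−1.16) and the sterol dehydrogenase NSDHL (−0.84). SREBF2 was thus higher and SREBF1 lower in the same line. With the libraries that stood apart left out, 11 were called and STARD4 was not, beside 57.1% of all genes. With an offset for GC content FDFT1 was 0.51 and MSMO1 0.19, both below the fold threshold, and STARD4 was −0.19.

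**Figure D1:**
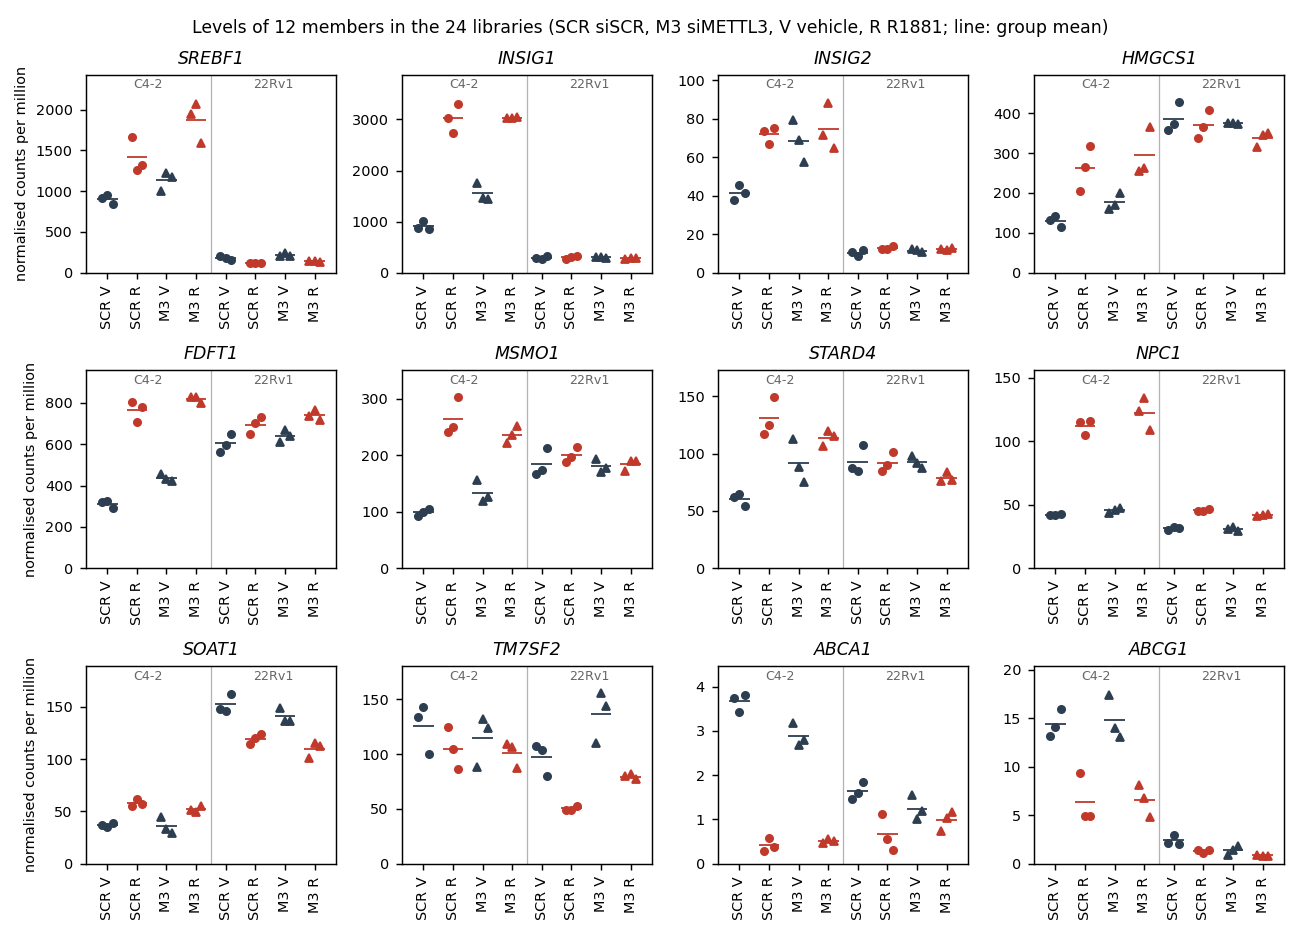
Normalised CPM of 12 members in each of the 24 libraries (y axis, linear, from 0), by group (x axis: SCR siSCR, M3 siMETTL3, V vehicle, R R1881), with circles for siSCR, triangles for siMETTL3, dark symbols for vehicle, red symbols for R1881 and a line at the group mean. INSIG1 stood at 861 to 1005 in LNCaP:C4-2 siSCR vehicle and at 2740 to 3312 with R1881, whereas no 22Rv1 library exceeded 332.

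The first treatment comparison asked what androgen did to the pathway in LNCaP:C4-2 with METTL3 left in place. With R1881, 13 of the 29 genes rose (7.39% of 16435 genes tested rose) and 2 fell (7.72% fell). The risers came from every arm of the pathway: 4 of 5 genes of the SREBPs and their regulators, 3 of 7 mevalonate genes, 3 of 11 genes from squalene to cholesterol, and 3 of 6 genes of transport and storage. The 2 that fell were the exporters ABCA1 and ABCG1. The median log2 change was 0.53 over the 29 and −0.03 over all genes tested. The 3 libraries with R1881 did not overlap the 3 with vehicle for 22 of the 29, a share not counted over all genes. At an unadjusted p under 0.05 in edgeR there were 22 of the 29, beside 5937 of all 16435 genes.

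INSIG1 (chr7:155297776-155310235, plus strand, GRCh38), the sterol-regulated anchor of SREBP, changed most among the risers. Its level was 881, 1005 and 861 CPM with vehicle and 3032, 2740 and 3312 with R1881. Every R1881 library exceeded every vehicle library by a wide margin. The change was 3.29-fold (log2 1.72, standard error 0.10, adjusted p = 5.19e-09). INSIG2, the second anchor, was 37.9, 45.4 and 41.4 CPM with vehicle and 73.6, 67.0 and 75.5 with R1881 (log2 0.78, standard error 0.13, adjusted p = 0.000508), again without overlap.

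SREBF1 (chr17:17810399-17837002, minus strand) was 915, 953 and 838 CPM with vehicle and 1669, 1255 and 1325 with R1881, a log2 change of 0.64 (standard error 0.12, adjusted p = 0.00105). SCAP, the escort of the SREBP precursors, was 101 to 110 CPM with vehicle and 149 to 186 with R1881 (log2 0.60, adjusted p = 0.000232). Replicate 1 of the R1881 group was the highest library for both genes. Without that library both changes were 0.52, below the fold threshold, and with the 5 libraries that stood apart left out both were 0.48. SREBF2 passed the p threshold below the fold threshold (331 to 452 CPM, log2 0.44, adjusted p = 0.00668).

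Among the mevalonate genes, IDI1, the isopentenyl diphosphate isomerase, rose from 127, 131 and 128 CPM to 276, 279 and 323 (log2 1.17, standard error 0.10, adjusted p = 3.21e-07). HMGCS1, which makes HMG-CoA, rose from 132, 142 and 115 to 205, 265 and 318 CPM (log2 1.01, standard error 0.17, adjusted p = 0.000357). Neither gene had overlapping groups, though the R1881 libraries of HMGCS1 were spread widely. MVD, the mevalonate diphosphate decarboxylase, was 54.2, 51.4 and 35.5 CPM with vehicle and 86.2, 60.8 and 70.3 with R1881 (log2 0.61, standard error 0.21, adjusted p = 0.0444), a call that was lost in 5 of the 6 fits with 1 library left out and stood at log2 0.33 without the libraries that stood apart. FDPS, the farnesyl diphosphate synthase, had a log2 change of 0.53 (adjusted p = 0.0127). ACAT2, MVK and PMVK had values of 0.11, 0.17 and −0.29 and were not called.

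Of the later steps, MSMO1 rose from 93.1, 99.4 and 105 CPM to 241, 251 and 303 (log2 1.41, standard error 0.12, adjusted p = 3.34e-07). FDFT1, which commits farnesyl diphosphate to sterols, rose from 319, 325 and 293 to 804, 707 and 781 CPM (log2 1.28, standard error 0.08, adjusted p = 1.15e-08). SC5D, the lathosterol oxidase, rose from 77.9 to 131 CPM (log2 0.75, adjusted p = 0.000538). These 3 genes stand at the entry, the middle and near the end of the squalene-to-cholesterol arm. A further 4 genes of the arm passed the p threshold with less than 1.5-fold: the lanosterol synthase LSS (0.56), the squalene epoxidase SQLE (0.53), HSD17B7 (0.52) and DHCR7 (0.42). The other 4 were not called, with log2 values of −0.27 (TM7SF2), −0.18 (CYP51A1), 0.05 (NSDHL) and 0.31 (EBP).

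The transport genes divided. NPC1, which exports cholesterol from lysosomes, was 41.99, 41.6 and 42.5 CPM with vehicle and 115, 105 and 116 with R1881 (log2 1.40, standard error 0.09, adjusted p = 2.87e-08). STARD4 rose from 60.3 to 131 CPM (log2 1.11, adjusted p = 2.66e-05). SOAT1 rose from 37.1 to 58.0 CPM (log2 0.63, adjusted p = 0.00207) and was below the fold threshold without replicate 2 of the R1881 group (0.57) and with the GC offset (0.58). So NPC1, STARD4 and SOAT1 were higher with R1881, while NPC2, the lysosomal sterol carrier, was not called (55.9 CPM with vehicle and 49.6 with R1881).

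ABCA1 (chr9:104781002-104928237, minus strand), the exporter that loads cholesterol onto apolipoprotein A-I, was 3.75, 3.43 and 3.82 CPM with vehicle and 0.296, 0.581 and 0.369 with R1881. The fall was 8.85-fold (log2 −3.15, standard error 0.27, adjusted p = 5.31e-07) and rested on 64 to 68 counts per vehicle library and 5 to 9 per R1881 library. ABCG1, its partner that exports to high-density lipoprotein, was 13.1, 14.1 and 15.9 CPM with vehicle and 9.29, 4.91 and 4.91 with R1881 (log2 −1.19, 2.28-fold, adjusted p = 0.00144). Both genes are at low levels, and neither had overlapping groups. With the 5 libraries that stood apart left out, 13 members were called (18.4% of all genes): SREBF1, SCAP and MVD no longer were, and CYP51A1 was lower with R1881 (log2 −0.98, adjusted p = 8.87e-06). The libraries left out held CYP51A1 at 8.04 CPM (vehicle replicate 3) and 20.8 (R1881 replicate 1). Those kept were 17.7 and 17.1 with vehicle and 8.39 and 9.02 with R1881, so the fall rests on which libraries were kept.

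The same comparison with METTL3 depleted gave 11 risers (background 5.09%) and 2 fallers (background 5.54%), again ABCA1 (log2 −2.45, 5.46-fold, adjusted p = 8.21e-06) and ABCG1 (−1.16, adjusted p = 0.00233). The median over the 29 was 0.52, against −0.00 over all genes. No overlap between groups was seen for 20 of the 29, a share not counted over all genes. At an unadjusted p under 0.05 in edgeR there were 22 of the 29, beside 4833 of all 16435 genes. Of the risers, 9 were called with both siRNA pools, which is 9 of the 13 with siSCR and 9 of the 11 with siMETTL3: SREBF1, SCAP, INSIG1, HMGCS1, IDI1, MVD, FDFT1, MSMO1 and NPC1. NPC1 had the largest rise among them (45.5 to 122 CPM, log2 1.44, adjusted p = 2.66e-08), followed by INSIG1 (0.98), FDFT1 (0.92) and MSMO1 (0.84). LSS (0.78, adjusted p = 0.00134) and EBP, the sterol isomerase (0.67, adjusted p = 0.00164), were called with siMETTL3 alone.

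INSIG2, STARD4, SC5D and SOAT1 were called with siSCR and not with siMETTL3, where they had log2 values of 0.14, 0.32, 0.27 and 0.56. For INSIG2 the siMETTL3 libraries were 79.6, 69.1 and 57.4 CPM with vehicle and 71.7, 88.1 and 65.0 with R1881, so the groups overlapped. Whether the responses differed is tested below. With the libraries that stood apart left out 12 were called (11.7% of all genes), SOAT1 among them. Without siMETTL3 vehicle replicate 1, which stood apart, MVD (0.57) and EBP (0.52) were below the fold threshold, and HMGCS1 was without R1881 replicate 3 (0.56). With the GC offset SREBF1 was 0.58 and SCAP 0.52.

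**Figure D2:**
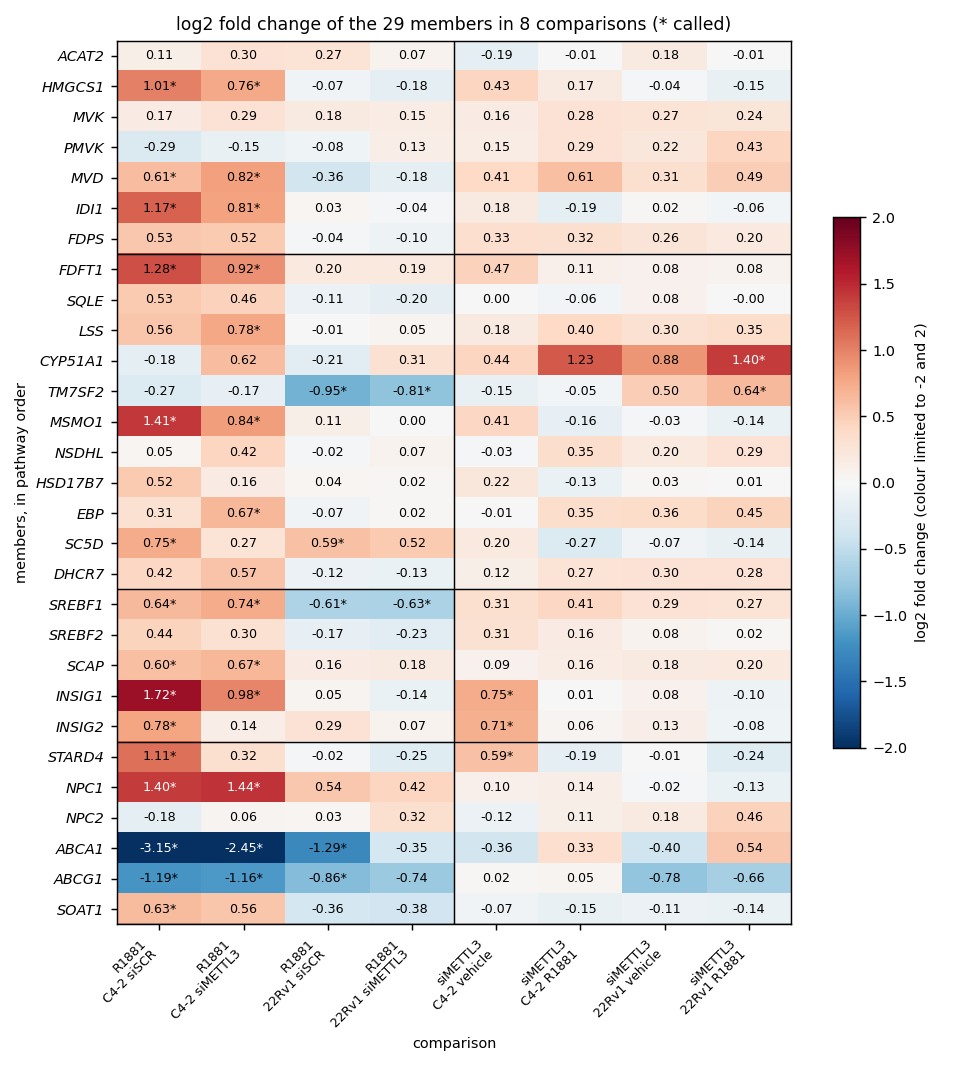
Log2 fold change of the 29 members (y axis, in pathway order, with lines between the 4 groups) in the 8 comparisons within a line (x axis), as numbers and colour (red higher, blue lower, colour limited to −2 and 2), with an asterisk where the gene was called. The first 2 columns, R1881 in LNCaP:C4-2, hold 13 and 11 called rises, whereas columns 3 and 4, R1881 in 22Rv1, hold 1 and 0.

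In 22Rv1 with siSCR, R1881 raised 1 of the 29 (background 4.19% of 17865 genes) and lowered 4 (background 9.64%), close to the shares over all genes. The median was −0.02 over the 29 and 0.00 over all genes. SC5D rose from 67.7, 70.3 and 88.4 CPM to 111, 114 and 116 (log2 0.59, standard error 0.09, adjusted p = 3.72e-05), at the edge of the fold threshold and lost in 3 of the 6 fits with 1 library left out. TM7SF2 (chr11:65111845-65116384, plus strand), a sterol-C14 reductase, fell from 107, 104 and 80.4 CPM to 49.2, 49.5 and 52.7 (log2 −0.95, 1.94-fold, adjusted p = 1.35e-06). SREBF1 fell from 202, 175 and 154 to 119, 116 and 113 CPM (log2 −0.61, 1.53-fold, adjusted p = 2.73e-05), below the fold threshold without vehicle replicate 1 (−0.51) and with the GC offset (−0.34). All 3 genes had groups that did not overlap. With the libraries that stood apart left out, 5 were again called (16.2% of all genes).

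ABCA1 and ABCG1 were lower with R1881 in this line too, at levels close to the floor of 3 counts, which is 0.191 CPM in the smallest library. ABCA1 was 1.45, 1.60 and 1.85 CPM with vehicle and 1.13, 0.556 and 0.319 with R1881 (log2 −1.29, standard error 0.36, adjusted p = 0.00899), and was not called without R1881 replicate 3 (−0.96, adjusted p = 0.0616). ABCG1 was 2.18, 3.00 and 2.07 CPM against 1.45, 1.11 and 1.43 (log2 −0.86, adjusted p = 0.0184), not called without vehicle replicate 2 (−0.67) or R1881 replicate 2 (−0.74). Past the p threshold alone were NPC1 (0.54, adjusted p = 1.61e-05), ACAT2 (0.27), FDFT1 (0.20), MVD (−0.36) and SOAT1 (−0.36). INSIG1 was 265 to 332 CPM in the 6 siSCR libraries (log2 0.05, standard error 0.08).

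With siMETTL3 in 22Rv1, R1881 raised 0 of the 29 (background 4.18%) and lowered 2 (background 9.29%), TM7SF2 (137 to 79.6 CPM, log2 −0.81, adjusted p = 8.79e-06) and SREBF1 (216 to 142 CPM, log2 −0.63, adjusted p = 1.81e-05). DESeq2 also called 0 higher. In either direction, 13 of the 29 had an unadjusted p under 0.05 in edgeR, beside 7542 of all 17865 genes. The p threshold alone was passed by 8, SC5D among them (0.52, adjusted p = 0.000154) and NPC1 (0.42). SREBF1 was below the fold threshold with the GC offset (−0.50) and without vehicle replicate 2 or R1881 replicate 3. Without vehicle replicate 1, which stood apart, SC5D (0.61) and ABCG1 (−0.96) were called as well, and 4 were called with all that stood apart left out (13.6% of all genes).

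The difference between the 2 lines in the response to R1881 was tested directly in siSCR, in a fit of all 24 libraries. It was called for 19 of the 29 at an adjusted p under 0.05 (background 16.8%), 18 with a more positive response in LNCaP:C4-2 and 1, ABCA1, with a deeper fall there. The median difference, 22Rv1 minus LNCaP:C4-2, was −0.56 on the log2 scale against 0.03 over all genes. INSIG1 differed most (−1.67, standard error 0.13, adjusted p = 4.89e-10), followed by MSMO1 (−1.31), SREBF1 (−1.26), IDI1 (−1.15), STARD4 (−1.13), FDFT1 (−1.09) and HMGCS1 (−1.08). SREBF1 (adjusted p = 2.17e-06), MVD (−0.98) and SOAT1 (−0.99, adjusted p = 1.52e-05) had values of opposite sign in the 2 lines, each past the p threshold in both. With the libraries that stood apart left out, 20 of the 29 were called, EBP added, beside 21.8% of all genes.

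The remaining 9 genes with a called difference were NPC1 (−0.87), TM7SF2 (−0.69), SQLE (−0.64), SREBF2 (−0.61), FDPS (−0.57), LSS (−0.56), DHCR7 (−0.54), HSD17B7 (−0.49) and SCAP (−0.44). TM7SF2 and LSS lost the call in 6 of the 12 fits with 1 library left out, and FDPS in 4. ABCA1 differed by 1.86 (standard error 0.48, adjusted p = 0.00753) and lost the call without 22Rv1 R1881 replicate 1 (1.23, adjusted p = 0.0989). The genes with no called difference included SC5D (−0.16), which rose in both lines, and ABCG1 (0.32, adjusted p = 0.636), which fell in both. A difference for these was not detectable with 3 libraries a group, which does not show that the responses were alike.

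**Figure D3:**
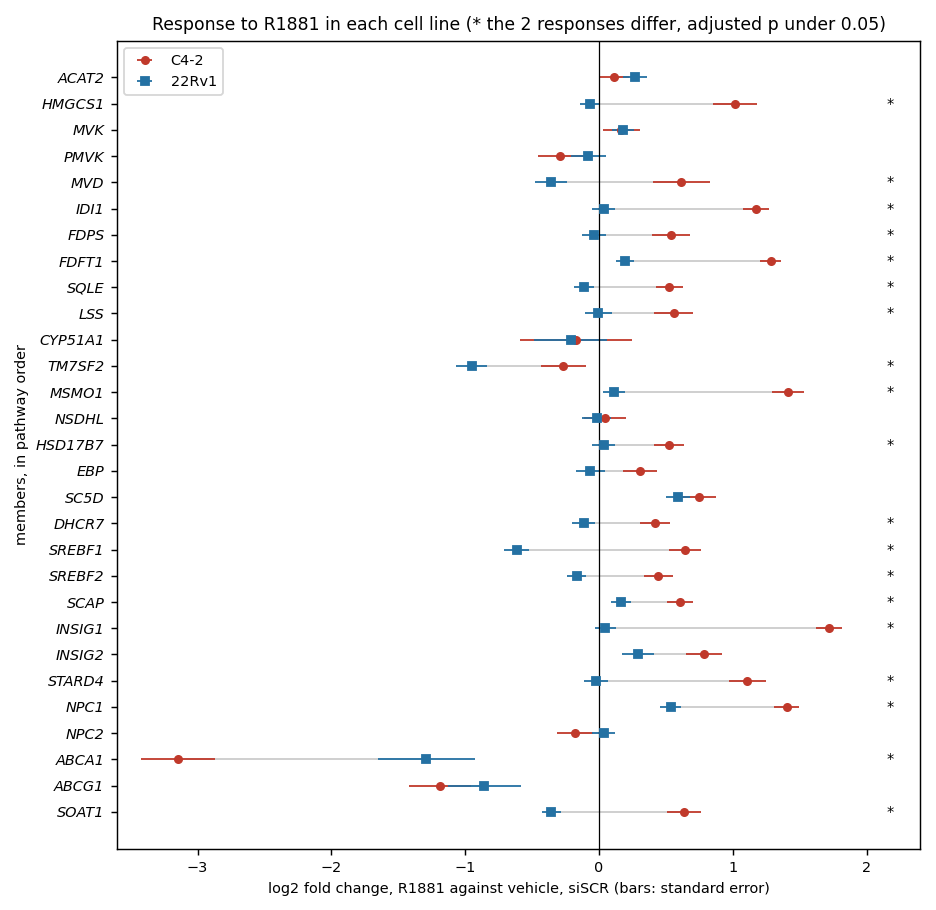
Log2 fold change with R1881 in siSCR cells (x axis, with bars of 1 standard error) for the 29 members (y axis, in pathway order), with red circles for LNCaP:C4-2, blue squares for 22Rv1, a grey line joining the pair and an asterisk where the responses differed at an adjusted p under 0.05. Most red circles lie to the right of zero, up to 1.72 for INSIG1, and most blue squares lie near zero.

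Knockdown of METTL3 in LNCaP:C4-2 without androgen raised 3 of the 29 (background 0.828%) and lowered 0 (background 0.371%; DESeq2 also 0). At an unadjusted p under 0.05 there were 9 of the 29 in either direction, beside 2636 of all 16435 genes. The 3 were INSIG1, INSIG2 and STARD4, and the median over the 29 was 0.18 against 0.00 over all genes. The comparison shares its 3 siSCR vehicle libraries with that of R1881 in siSCR, so a deviation in those libraries would enter both.

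INSIG1 was 881, 1005 and 861 CPM with siSCR and 1760, 1462 and 1452 with siMETTL3, without overlap (1.68-fold, log2 0.75, standard error 0.10, adjusted p = 0.00536). INSIG2 was 37.9 to 45.4 CPM with siSCR and 57.4 to 79.6 with siMETTL3 (log2 0.71, standard error 0.13, adjusted p = 0.0184). STARD4 was 54.1 to 65.0 CPM against 74.8 to 113 (log2 0.59, standard error 0.14, adjusted p = 0.0438). The groups of each gene were apart, and the highest siMETTL3 library was in each case replicate 1, which stood apart. FDFT1 passed the p threshold at less than 1.5-fold (312 to 437 CPM, log2 0.47, adjusted p = 0.00977), and MSMO1 and HMGCS1 had log2 values of 0.41 and 0.43 that were not called.

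These calls depended on single libraries. None of the 3 was called without siSCR vehicle replicate 1 or without replicate 3, and STARD4 was lost in 5 of the 6 fits with 1 library left out, in which its adjusted p reached 0.224. With the libraries that stood apart left out, INSIG1 had log2 0.62 (adjusted p = 0.000367), INSIG2 0.59 (0.0085) and STARD4 0.35 (0.0282), so that INSIG1 and INSIG2 remained called, beside 2.25% of all genes.

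With R1881 present, knockdown in LNCaP:C4-2 gave 0 called members in edgeR, higher (background 0.28%) or lower (background 0.42%). At an unadjusted p under 0.05 in edgeR there were 9 of the 29, beside 4702 of all 16435 genes. DESeq2 called 1, MVD (0.60, adjusted p = 0.0463), where 3.59% of all genes were called. INSIG1 was 2740 to 3312 CPM with siSCR and 3022 to 3052 with siMETTL3 (log2 0.01), so the difference seen with vehicle was not seen here. The largest value belonged to CYP51A1 (chr7:92112151-92142952, minus strand), the lanosterol demethylase, at log2 1.23 (adjusted p = 0.0905). Its siSCR libraries were 20.8, 8.39 and 9.02 CPM and its siMETTL3 libraries 30.8, 30.2 and 28.3. Replicate 1 of the siSCR group, which stood apart, was the high library. Without it CYP51A1 (1.75) and MVD (0.73) were called, and so they were with all 5 libraries that stood apart left out. In these fits 8.89% and 11.7% of all genes were called, so 2 of 29 was below the share over all genes.

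The interaction of R1881 and knockdown, which asks whether the rise with R1881 differed between siRNA pools, was called for 0 of the 29 in LNCaP:C4-2 (background 0%, 0 of 16435 genes), while 8 of the 29 and 2037 of all genes had an unadjusted p under 0.05. Of the 13 genes that rose with siSCR, 9 had a smaller rise with siMETTL3, but the 13 had been picked by that rise. Over all 29 the difference was negative for 13 and positive for 16. Its median was 0.04, against 0.002 over all genes. The largest negative differences were STARD4 (log2 −0.79, standard error 0.19, adjusted p = 0.281), INSIG1 (−0.74, 0.14, 0.181), INSIG2 (−0.64, 0.19, 0.314) and MSMO1 (−0.57, 0.16, 0.314). INSIG1 reached means of 3028 ± 286 and 3037 ± 14.6 CPM with R1881 (SD, n = 3) and had vehicle means of 916 ± 77.9 and 1558 ± 175, so the 2 pools were close with R1881 and apart with vehicle.

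This result turned on the processing. DESeq2 called 2, INSIG1 (−0.75, adjusted p = 0.00139) and STARD4 (−0.80, 0.0482), where 0.327% of all genes were called, and edgeR without the filter on low counts called 5, where 1.01% were. With the 5 libraries that stood apart left out, 8 of the 29 were called, 6 with a smaller rise under siMETTL3 (INSIG1 −0.63, STARD4 −0.64, MSMO1 −0.58, SC5D −0.41, IDI1 −0.35 and FDFT1 −0.28) and 2 with a more positive response (CYP51A1 1.20 and NSDHL 0.42), where 9.94% of 16702 genes were called. The siSCR R1881 libraries kept in that fit had the highest mitochondrial shares of the series (9.73% and 9.69%). Library make-up and condition cannot be told apart there.

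**Figure D4:**
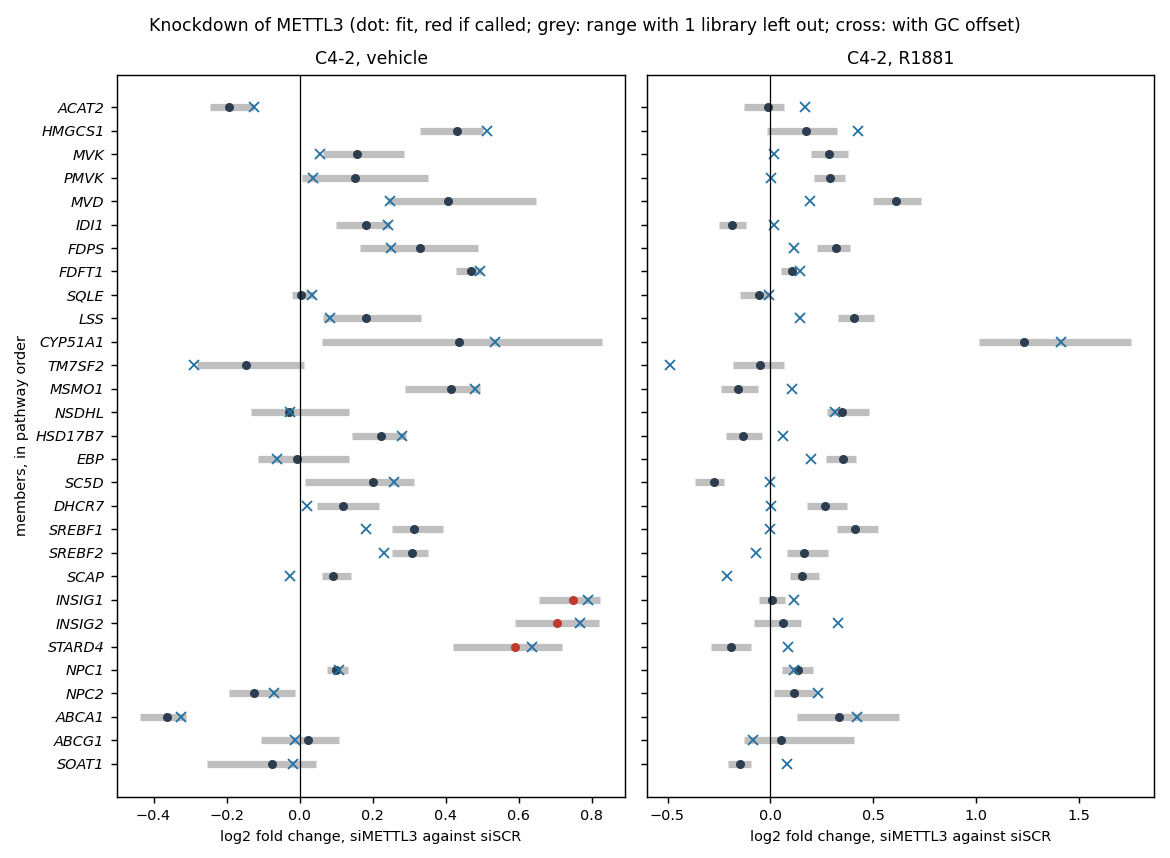
Log2 fold change with siMETTL3 against siSCR in LNCaP:C4-2 with vehicle (left) and R1881 (right) for the 29 members (y axis, in pathway order). Dots are the fitted values, red where called, grey bars span the values with 1 library left out and crosses are values with an offset for GC content. The 3 red dots, INSIG1, INSIG2 and STARD4, are on the vehicle side, and CYP51A1 has the widest grey bars.

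In 22Rv1, knockdown without androgen called 0 members in edgeR, higher (background 0.0616%) or lower (background 0.14%), and 0 in DESeq2. At an unadjusted p under 0.05 in edgeR there were 12 of the 29, beside 2604 of all 17865 genes. TM7SF2 passed the p threshold below 1.5-fold (97.2 to 137 CPM, log2 0.50, adjusted p = 0.0417). CYP51A1 was 22.1, 19.96 and 9.65 CPM with siSCR and 15.7, 43.6 and 35.1 with siMETTL3 (log2 0.88, standard error 0.26, adjusted p = 0.135). The library out of step in each group, siSCR replicate 3 and siMETTL3 replicate 1, was the one that stood apart, and with those left out the log2 change was 0.91 (adjusted p = 1.25e-08) and CYP51A1 the 1 member called (0.776% of all genes).

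With R1881, where no 22Rv1 library stood apart, 2 members rose (background 2.3%), and 0 fell in edgeR (background 0.985%) and in DESeq2. In either direction, 14 of the 29 had an unadjusted p under 0.05 in edgeR, beside 5712 of all 17865 genes. CYP51A1 was 15.5, 15.1 and 14.5 CPM with siSCR and 44.1, 36.8 and 39.2 with siMETTL3 (2.64-fold, log2 1.40, standard error 0.26, adjusted p = 0.00232). TM7SF2 was 49.2, 49.5 and 52.7 against 79.7, 81.7 and 77.3 CPM (1.56-fold, log2 0.64, standard error 0.12, adjusted p = 0.002). Neither pair of groups overlapped, and both were called in all 6 fits with 1 library left out. TM7SF2 has the highest GC content of the 29 (64.2%), and with the GC offset its change was 0.37, below the fold threshold.

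CYP51A1 shares 82.2% of its exonic bases with the annotated genes LRRD1 and CYP51A1-AS1. The counting used no strand and dropped fragments on several genes, so its values come from the remaining bases and cannot be assigned to a strand. A further 7 members passed the p threshold below 1.5-fold in 22Rv1 with R1881: MVD (0.49), the lysosomal sterol carrier NPC2 (0.46, 50.3 to 70.2 CPM, adjusted p = 0.00197), EBP (0.45), PMVK (0.43), LSS (0.35), DHCR7 (0.28) and SREBF1 (0.27). In all, 17 of the 29 had groups that did not overlap, a share not counted over all genes. The median was 0.08 against −0.02 over all genes. The interaction in 22Rv1 was called for 0 members in edgeR (background 0.0168%, smallest adjusted p 0.802) and 0 in DESeq2. At an unadjusted p under 0.05 in edgeR there was 1 of the 29, beside 1101 of all 17865 genes.

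The difference between lines in the effect of knockdown was called for 1 member without androgen (background 0.458%), INSIG1, whose rise was larger in LNCaP:C4-2 (22Rv1 minus LNCaP:C4-2 −0.69, standard error 0.13, adjusted p = 0.0136). INSIG1 in 22Rv1 was 265 to 326 CPM with siSCR and 294 to 316 with siMETTL3. The call was lost without LNCaP:C4-2 siSCR vehicle replicate 1 or replicate 3 and kept with the libraries that stood apart left out (−0.47, adjusted p = 0.0167). With R1881 the difference was called for 0 members in edgeR (background 0.0926%) and 0 in DESeq2. At an unadjusted p under 0.05 in edgeR there were 3 of the 29, beside 1469 of all 19437 genes. Without the libraries that stood apart TM7SF2 was called there (0.58, adjusted p = 0.00102), beside 6.11% of all genes.

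Of the 29 genes, 10 were called in none of the 8 comparisons within a line. They were ACAT2 (log2 values −0.19 to 0.30), MVK (0.15 to 0.29), PMVK (−0.29 to 0.43), FDPS (−0.10 to 0.53), SQLE (−0.20 to 0.53), NSDHL (−0.03 to 0.42), HSD17B7 (−0.13 to 0.52), DHCR7 (−0.13 to 0.57), SREBF2 (−0.23 to 0.44) and NPC2 (−0.18 to 0.46). ACAT2 shares 52.3% of its exonic bases with other genes, TCP1 among them. A further 4 were called in 1 comparison, 10 in 2, 4 in 3 and 1 in 4.

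Neighbouring branches were taken from lists written by function. SREBP targets of fatty acid synthesis moved with R1881 in LNCaP:C4-2, where 10 of 14 rose and 1 fell with siSCR (7.39% and 7.72% of all genes). ELOVL5, a fatty acid elongase, rose from 144 to 649 CPM (log2 2.17), and FASN, the fatty acid synthase, had a log2 change of 1.82, while the elongase ELOVL6 fell (−0.86). With siMETTL3, 7 rose (5.09% of all genes) and ELOVL6 fell (−1.13; 5.54%). In 22Rv1 with siSCR, 2 of the 14 rose (ELOVL5 1.83 and FASN 0.75) and 2 fell (FADS2 −0.83 and SCD −0.72), beside 4.19% and 9.64% of all genes, as the same 4 did with siMETTL3. The line difference in the R1881 response was called for 11 of the 14 (16.8% of all genes), 10 of them more positive in LNCaP:C4-2, and 8 were lower in 22Rv1 with vehicle and siSCR (27.9%).

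Of the isoprenoid branch, GGPS1, which makes geranylgeranyl diphosphate, rose with R1881 in LNCaP:C4-2 siSCR (log2 0.62), the 1 called of 9 tested, which is near the share over all genes (7.39%). With siMETTL3, 0 of the 9 were called there (5.09% of all genes rose and 5.54% fell). At baseline 1 of the 9 was higher in 22Rv1 and 2 were lower, and the line difference in the R1881 response was called for GGPS1 alone. Of 10 genes of SREBP processing and sterol-regulated degradation, 0 were called with R1881 in LNCaP:C4-2 by either siRNA pool, with 2 and 3 past the p threshold alone, and RNF145 rose in 22Rv1 (0.85 with siSCR and 0.84 with siMETTL3; 4.19% and 4.18% of all genes rose). RNF145 was also the 1 of these 10 that differed at baseline, lower in 22Rv1, and the line difference in the R1881 response was called for it, MBTPS2 and ERLIN2, the last lost in 9 of the 12 fits with 1 library left out. Of the sterol uptake, trafficking and LXR genes, 15 were tested in LNCaP:C4-2. With siSCR the lipoprotein receptors VLDLR (0.64) and LRP8 (0.59, at the edge of the fold threshold) rose there (7.39% of all genes). The cholesterol ester hydrolase NCEH1 fell (−0.70, 7.72% of all genes). With siMETTL3, 0 of the 15 were called in LNCaP:C4-2 (5.09% of all genes rose and 5.54% fell). Of 16 tested in 22Rv1, MYLIP (−0.88) and GRAMD1A (−1.24) fell with siSCR (9.64% of all genes), and the same 2 fell with siMETTL3 (9.29%). Of these 16, 3 were higher and 6 lower in 22Rv1 at baseline (31.2% and 27.9% of all genes), and the line difference in the R1881 response was called for 8 (16.8%), 7 of them more positive in LNCaP:C4-2. Knockdown without androgen in LNCaP:C4-2 raised SCD, the stearoyl-CoA desaturase (0.81), and the acetyl-CoA synthetase ACSS2 (0.64), both at adjusted p = 0.00977 (0.828% of all genes rose). Each call was lost in 3 of the 6 fits with 1 library left out, siSCR vehicle replicate 3 among them, and with the libraries that stood apart left out SCD was 0.63 and ACSS2 0.53, the latter below the fold threshold. Knockdown with R1881 in 22Rv1 lowered the malic enzyme ME1 (−0.69, adjusted p = 0.000549; 0.985% of all genes fell).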

How the data were processed

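RNA-seq of 24 libraries was analysed, 3 for each of 8 groups. Per the labels and the methods, reads were cleaned by Trim Galore, STAR placed them on GRCh38, and featureCounts 1.5.0 assigned fragments to Ensembl release 83 genes without a strand setting, dropping those on several places or genes. The deposited values are raw counts. Symbols from the reference annotation matched 56558 of the 60675 gene identifiers. The 29 members and all gene lists were chosen with earlier results of these data known. The rule for named genes was every member, METTL3, KLK3 and FKBP5 as checks, and called genes of the neighbouring lists.

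The counts were fitted with edgeR 4.0.16 in R 4.3.3 (TMM, filterByExpr with a count minimum of 10 and a total of 15, glmQLFit and glmQLFTest): 12 libraries per line with 8 residual degrees of freedom, or all 24 for differences between lines. P-values were adjusted by Benjamini-Hochberg over all genes tested. Calls needed an adjusted p under 0.05 and 1.5-fold (log2 0.585), or the adjusted p alone for interactions and line differences. Standard errors are the log2 change divided by the root of the F statistic. RPKM used the deposited gene lengths. Floors of 3 counts (0.141 CPM in the largest library) cover counting error only.

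Libraries stood apart where the chi-square per gene was over 10 against both mates and under 5 between the mates. Alternatives were DESeq2 1.42.0, RLE factors, library size alone, other filters, a replicate block, only the 6 libraries compared, other thresholds and leaving out each library. Leaving out the libraries that stood apart, and a per-library spline offset for GC content (5 degrees of freedom), were chosen after seeing the data. On simulated counts with 200 genes changed by log2 1, edgeR recovered 75.5% in LNCaP:C4-2 (16435 genes) and 78% in 22Rv1 (17865 genes). Tables were joined with Python 3.11.15, pandas 2.3.3 and numpy 2.4.6, and figures drawn with matplotlib 3.10.9.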

Additional observations from a re-analysis of the deposited data

Results flagged for a closer look

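The 2 lines differed, by a test of the difference itself in a fit of all 24 libraries, in the response of 19 members to R1881 with siSCR. The log2 difference, 22Rv1 minus LNCaP:C4-2, was −1.08 for HMGCS1, −0.98 for MVD, −1.15 for IDI1 and −0.57 for FDPS among the mevalonate genes. From squalene to cholesterol it was −1.09 for FDFT1, −0.64 for SQLE, −0.56 for LSS, −0.69 for TM7SF2, −1.31 for MSMO1, −0.49 for HSD17B7 and −0.54 for DHCR7. Among the SREBPs and their regulators it was −1.26 for SREBF1, −0.61 for SREBF2, −0.44 for SCAP and −1.67 for INSIG1, and in transport and storage −1.13 for STARD4, −0.87 for NPC1, −0.99 for SOAT1 and 1.86 for ABCA1. The effect of knockdown without androgen differed between the lines for INSIG1, at −0.69.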

How the results depend on the processing

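Members called, and the values of the regulators, were recomputed under each alternative. Brackets hold the share of all genes called under the same setting, which was not counted for the other thresholds. Knockdown in LNCaP:C4-2 with vehicle called 3 (1.2%), and 1 with only the 6 libraries compared (0.717%) or at an adjusted p under 0.01. With R1881 it called 0 (0.7% of all genes), and 2 without the count filter (2.24%), with only the 6 libraries compared (3.36%) or with the libraries that stood apart left out (11.7%), and 1 with DESeq2 (3.59%). The LNCaP:C4-2 interaction called 0 (0%), and 5 without the filter (1.01%), 2 with DESeq2 (0.327%) and 8 with those libraries left out (9.94%). R1881 in 22Rv1 siSCR called 5 (13.8%), and 3 with at least 10 counts in every library (13.2%) and 10 with no fold threshold. In siMETTL3 it called 2 (13.5%), and 1 with the GC offset (13.9%) and 4 with the libraries left out (13.6%). With no fold threshold it called 10. Knockdown in 22Rv1 with vehicle called 0 (0.202%), and 1 without the filter (0.232%), with the libraries left out (0.776%) or with no fold threshold. With R1881 it called 2 (3.29%), and 1 with the GC offset (2.35%) and 9 with no fold threshold. The baseline difference between lines called 12 (59.2%), and 19 with no fold threshold. The line difference in knockdown called 1 with vehicle (0.458%), and 4 without the filter (0.735%) and 3 with DESeq2 (2.04%). It called 5 with the GC offset (3.06%), 2 with the libraries left out (1.23%) and 0 at an adjusted p under 0.01. With R1881 it called 0 (0.0926%), and 1 without the filter (0.179%), with the GC offset (0.355%) or with the libraries left out (6.11%).

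With 1 library left out, the counts ran from 13 to 16 (R1881, LNCaP:C4-2 siSCR), 11 to 15 (siMETTL3), 0 to 3 and 0 to 2 (knockdown in LNCaP:C4-2, vehicle and R1881), 3 to 5 and 1 to 4 (R1881 in 22Rv1, siSCR and siMETTL3), 0 to 2 and 2 to 2 (knockdown in 22Rv1), 11 to 13 (baseline), 15 to 20 (line difference in R1881), and 0 to 4 and 0 to 0 (line difference in knockdown). The share of all genes called moved too. For knockdown in LNCaP:C4-2 it ran from 0% to 2.01% with vehicle and from 0.00594% to 8.89% with R1881. For R1881 in LNCaP:C4-2 it was 12.1% to 14.6% (siSCR) and 8.46% to 10.3% (siMETTL3), and in 22Rv1 11.3% to 15.6% and 11.9% to 13.3%. Knockdown in 22Rv1 gave 0.0819% to 1.25% (vehicle) and 1.68% to 2.93% (R1881). The baseline gave 56.8% to 58% and the line difference in R1881 13.5% to 16.1%. The line difference in knockdown gave 0.0702% to 1.54% (vehicle) and 0.00501% to 0.125% (R1881). Signs reversed with the GC offset in LNCaP:C4-2 knockdown with R1881 for SREBF2 (−0.0700) and SCAP (−0.2114). In 22Rv1 knockdown they reversed for SREBF2 (−0.0084 with vehicle, −0.1368 with R1881), SCAP (−0.0446) and INSIG2 (0.1032). They also reversed for STARD4 at baseline (−0.1943) and for SCAP in a further comparison within a line (−0.0275). INSIG1 under knockdown in LNCaP:C4-2 with R1881 reversed with RLE (−0.0044), the stricter filter (−0.0057), DESeq2 (−0.0035) and the libraries left out (−0.0119), and ran from −0.0564 to 0.072 with single libraries left out. With R1881 in 22Rv1 it reversed with library size alone (−0.0142) and ran from −0.0369 to 0.1331. In LNCaP:C4-2, INSIG2 with single libraries left out ran from −0.0800 to 0.1496 (knockdown, R1881) and from −0.0032 to 0.249 (R1881, siMETTL3). The causes were not tested. Of the called values for single genes, 585 kept their call under the other alternatives, 37 lost it and 1 reversed (STARD4 at baseline), and with 1 library left out 500 kept it and 52 lost it.

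For each gene the group mean of log2 CPM was subtracted, and the deviations were correlated between libraries of different groups. Same-numbered libraries correlated at −0.0127 on average in LNCaP:C4-2 (18 pairs) and at −0.0074 in 22Rv1 (18 pairs). Differently numbered ones correlated at 0.0061 and 0.0039 (36 pairs each). Of 12 libraries per line, 4 and 3 correlated best with their own number, so the numbers were not taken as pairs. The replicate block left 14 and 13 members called for R1881 in LNCaP:C4-2, 2 for knockdown with vehicle (STARD4 lost) and 10 at baseline (SREBF2 and STARD4 lost).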
